A study of Homo sapiens with 3 samples.

Results

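The genes described here are 44 epithelial junction and polarity genes, taken by symbol from a list of genes that build or regulate epithelial cell contacts, out of 18856 genes listed in at least 1 library. Their expression was measured in 3 libraries of polyA+ mRNA, each made from an input of 10 pg. HBE, a human bronchial epithelial cell line, was measured by LIEA, which fragments mRNA at random, ligates adapters before reverse transcription and reads the library on an Ion Torrent sequencer. The same cell line was also measured by Smart-seq2, which primes full-length cDNA at the polyA tail and amplifies it before Illumina sequencing. A549, a lung adenocarcinoma cell line, was measured by LIEA only. No treatment, transgene or other allele is given for either line, the clone of HBE is not named, and each group is 1 library, so every comparison below is a description of these libraries with no test of significance.

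Epithelial cells adhere to each other through adherens junctions, in which cadherins hold cells together and catenins link them to actin, and through desmosomes, in which desmogleins and desmocollins are tied to keratin filaments by plakoglobin, plakophilins and desmoplakin. Tight junctions of claudins, occludin and their scaffold proteins seal the space between cells, and the Par, Crumbs and Lgl proteins divide the apical from the basolateral membrane. Transcription factors of the grainyhead, OVOL and ETS families and the ESRP splicing factors are known for keeping epithelial genes on, whereas ZEB and SNAI factors repress many of them.

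The values are rpkM, reads scaled to the length of the transcript and to the mapped reads of the library, so that levels of different genes are compared per length. The HBE LIEA, A549 LIEA and HBE Smart-seq2 libraries held 4605855, 4154060 and 9845150 mapped reads, as recovered from the values, and reads are given beside the levels to show the depth behind them. A gene with at least 10 reads is called quantified, and a gene that is not listed in a library is set at a floor of 3 reads, per library, which makes its fold a bound. This floor is a convention, since the 95% upper limit for 0 reads is 3.69 reads. A gene is called higher or lower when the ratio of its rpkM values is at least 2-fold, among genes quantified in at least 1 of the libraries compared. Intervals in parentheses are 95% intervals of counting error only (exact binomial, Clopper-Pearson), since reads amplified from 10 pg are not independent molecules. In such pooled cells, fewer cells of a type and less RNA per cell cannot be told apart.

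The markers of the cell lines followed their labels in part. All 5 bronchial basal markers (KRT5, KRT14, KRT15, KRT17, TP63) were lower in A549 than in both HBE libraries, with summed levels of 1722, 12.9 and 6144 rpkM in HBE LIEA, A549 LIEA and HBE Smart-seq2. Of the 4 simple epithelial keratins, 3 were higher in A549 than in both HBE libraries, and the fourth, KRT19, stayed within 2-fold. Of 4 alveolar type II markers, 1, SFTPB, was quantified in each library, at 1.24, 1.31 and 1.36 rpkM in HBE LIEA, A549 LIEA and HBE Smart-seq2. In the same order, 1, 2 and 3 of 5 ciliated and secretory markers were quantified. MUC5B, a secreted mucin, stood at 1.48, 66.7 and 0.357 rpkM. CDKN2A, which is known to be deleted in A549, was listed in none of the 3 libraries and so does not separate the lines. Fibroblast markers (6 genes) summed to 6.45, 4.02 and 1.56 rpkM, most of it COL1A1, and DCN and COL1A2 were listed in none. Immune markers (5 genes) summed to 50.1, 54.3 and 55.2 rpkM, with PTPRC at 0, 2 and 3 reads and CD3E listed in none. Endothelial markers (5 genes) summed to 12.3, 0.606 and 10.98 rpkM, most of it CDH5 in HBE, with CLDN5 listed in none and KDR at 3 reads or fewer. CDH5, the cadherin of endothelial adherens junctions, was lower in A549 like many junction genes (206, 0 and 360 reads). The part of the basal and endothelial markers in the differences of the junction genes was not tested.

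Of the 44 genes, 39 were quantified in HBE LIEA, 35 in A549 LIEA and 41 in HBE Smart-seq2, against 65.7%, 67.3% and 68.9% of all genes. Of these, 32 were quantified in all 3 libraries, and PKP1, a plakophilin of stratified epithelium, was quantified in none, with 1 read in HBE LIEA. JUP was at the 98.6th, 99.0th and 98.3rd percentile of listed genes in HBE LIEA, A549 LIEA and HBE Smart-seq2.

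Between the cell lines by the same method, 24 of 42 compared genes were lower in A549 LIEA than in HBE LIEA, where 20.9% of all 13709 genes compared were lower. Another 6 were higher, against 20.5% of all genes. The median log2 ratio was -1.27 over the junction and polarity genes and -0.13 over all genes. Relative to the median of genes with at least 10 reads in both libraries, which was at a log2 ratio of -0.16, the counts were 22 lower and 6 higher. Against HBE Smart-seq2, 27 of 43 genes were lower and 9 higher in A549, where 29.4% and 32.9% of all genes were. Against both HBE libraries at once, 21 of 43 genes were lower and 6 were higher in A549, where 11.8% and 15.7% of all 14557 genes were. Those ratios share the A549 library. Of the 39 genes listed in all 3 libraries, A549 lay below both HBE values in 26, above both in 8 and between them in 5, while over all genes listed in 3 libraries the shares were 36.99%, 32.2% and 30.8%. In 28 of the same 39 genes (71.8%), the log2 difference between the cell lines by LIEA was larger than that between the methods in HBE, which held for 42.4% of all 14157 genes listed in 3 libraries. The direction by role was uneven. Lower against both HBE libraries were 4 of 5 adherens junction genes, 5 of 11 desmosome genes, 5 of 13 tight junction genes, EPCAM and 6 of 7 regulators, while none of the 4 polarity genes was.

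**Figure D1:**
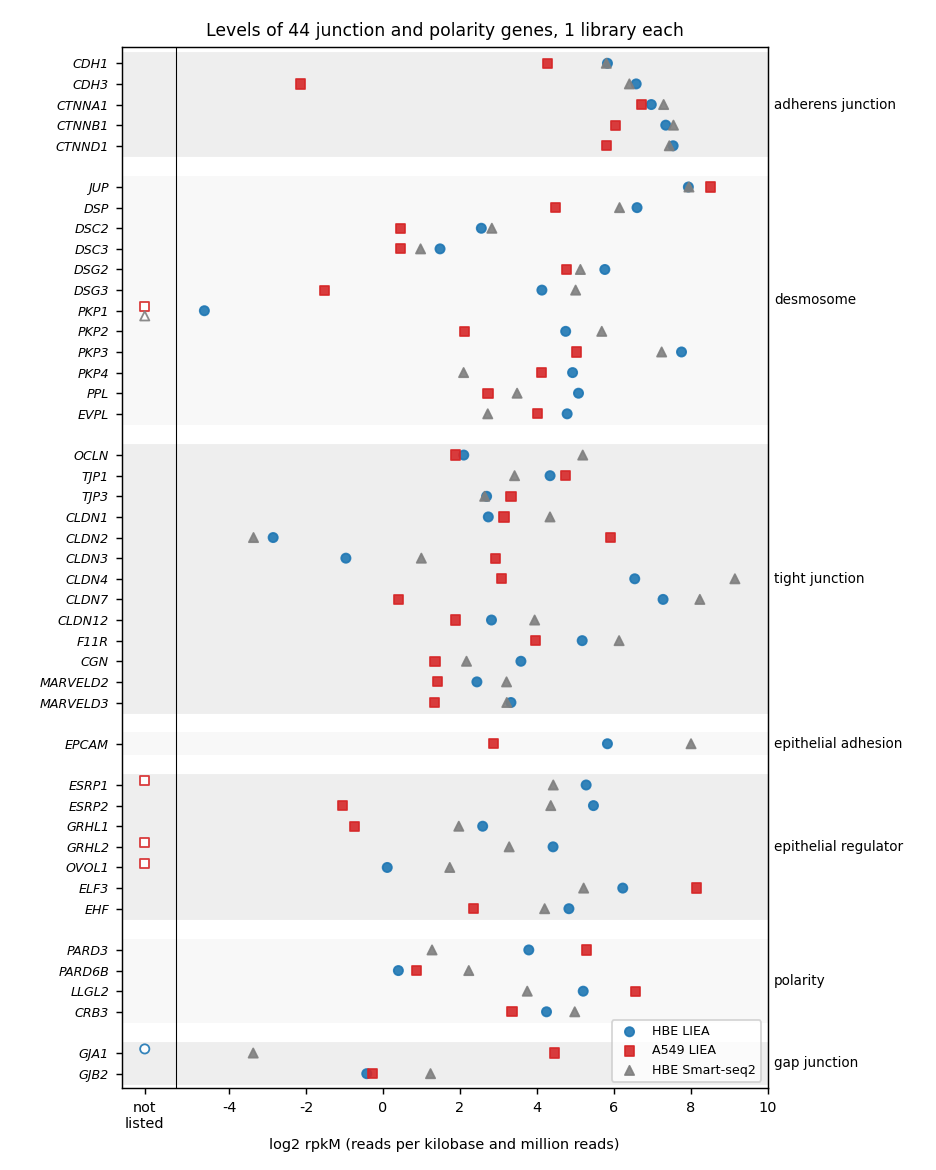
Level of each gene in log2 rpkM (horizontal axis) in HBE LIEA (circles), A549 LIEA (squares) and HBE Smart-seq2 (triangles), 1 library each, grouped by role, with open symbols at the left for a gene that is not listed. The A549 squares lie to the left of both HBE symbols for 26 of the 39 genes listed in all 3 libraries, and ESRP1, GRHL2 and OVOL1 are not listed in A549.

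Claudins, the membrane proteins that set what a tight junction lets through, exchanged their leading members between the lines, and the genomic sequence before their starts is shown first. The windows are the 250 bases before an annotated start in the RefSeq table (GRCh38.p14), printed 5′ to 3′ on the strand of the gene. Of the 44 genes, 27 had 41 such windows. The other 17 had no window and were not searched. They were CDH1, CDH3, CTNND1, PKP2, PKP3, PPL, EVPL, F11R, MARVELD3, EPCAM, ESRP1, ESRP2, GRHL2, OVOL1, PARD3, PARD6B and LLGL2. The capitals mark CAGGTG or its other strand CACCTG, the letters known to be bound by ZEB and SNAI repressors. CLDN4 and CLDN7 lead in HBE, CLDN2 and CLDN3 were higher in A549, and CRB3, a polarity gene, held the motif more often than any other window of the list. The windows are CLDN2 at chrX:106899914-106900163 on the + strand, CLDN3 at chr7:73770271-73770520 on the - strand, CLDN4 at chr7:73830746-73830995 on the + strand, CLDN7 at chr17:7262479-7262728 on the - strand and CRB3 at chr19:6464021-6464270 on the + strand.
CLDN2: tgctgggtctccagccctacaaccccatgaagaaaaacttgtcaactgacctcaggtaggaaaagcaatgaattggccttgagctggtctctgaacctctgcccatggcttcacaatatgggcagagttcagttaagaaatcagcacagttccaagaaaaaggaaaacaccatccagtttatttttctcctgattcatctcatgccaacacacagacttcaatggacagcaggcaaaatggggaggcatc
CLDN3: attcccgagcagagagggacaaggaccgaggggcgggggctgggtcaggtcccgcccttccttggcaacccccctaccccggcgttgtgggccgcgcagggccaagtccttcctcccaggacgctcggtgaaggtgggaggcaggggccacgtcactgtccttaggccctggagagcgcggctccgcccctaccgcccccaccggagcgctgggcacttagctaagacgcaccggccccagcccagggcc
CLDN4: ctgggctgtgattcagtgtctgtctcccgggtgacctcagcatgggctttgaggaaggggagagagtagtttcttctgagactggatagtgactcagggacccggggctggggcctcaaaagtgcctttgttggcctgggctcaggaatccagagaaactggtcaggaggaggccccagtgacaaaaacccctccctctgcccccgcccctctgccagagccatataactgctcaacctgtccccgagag
CLDN7: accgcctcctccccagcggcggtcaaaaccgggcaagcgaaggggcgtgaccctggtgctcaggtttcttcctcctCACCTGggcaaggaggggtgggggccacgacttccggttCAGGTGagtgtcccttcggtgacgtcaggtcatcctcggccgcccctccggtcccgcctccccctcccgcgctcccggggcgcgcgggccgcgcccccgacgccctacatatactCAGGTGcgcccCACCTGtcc
CRB3: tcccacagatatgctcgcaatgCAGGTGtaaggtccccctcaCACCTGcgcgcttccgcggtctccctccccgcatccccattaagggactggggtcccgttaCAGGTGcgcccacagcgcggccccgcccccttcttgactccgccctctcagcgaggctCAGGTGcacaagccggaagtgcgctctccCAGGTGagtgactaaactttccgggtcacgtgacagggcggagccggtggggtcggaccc

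The motif was in 11 of the 41 windows (26.8%), where 17.5% of all 35116 windows in the table held it. It occurred 4 times before a start of CLDN7, at -174, -135, -20 and -9 from the start, and 5 times before CRB3, and 0.122% of all windows held it 4 or more times. Another window of CLDN7, both windows of CLDN2 and those of CLDN3 and CLDN4 held no copy. The other genes with a copy were JUP, DSP, DSC2, DSG2, OCLN, TJP1, TJP3 and ELF3. Their A549 levels lay on both sides of HBE, with JUP and ELF3 above and DSP and DSC2 below. The letters AACCGGTT, known to be bound by grainyhead factors and the same on both strands, were in none of the 41 windows and in 41 of the 35116.

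CLDN7 stood at 156 rpkM in HBE LIEA, 302 rpkM in HBE Smart-seq2 and 1.32 rpkM in A549 LIEA, from 1441, 5979 and 11 reads. It was 118-fold lower in A549 than in HBE by LIEA (65.8 to 237) and 229-fold lower than in HBE by Smart-seq2 (128 to 460). The HBE values lay 1.94-fold apart, far closer to each other than either to A549. CLDN4 stood at 93.4, 569 and 8.41 rpkM in the same order, from 788, 10251 and 64 reads. That was 11.1-fold lower in A549 by LIEA (8.60 to 14.6) and 67.6-fold lower against Smart-seq2 (52.9 to 87.8), so its size depended on the method while A549 remained lowest. CLDN2, a claudin that forms pores for cations and water, was the reverse, with 2 reads in HBE LIEA, 3 in HBE Smart-seq2 and 789 in A549 LIEA, or 0.138, 0.0967 and 60.3 rpkM. The ratio was 437-fold higher in A549 against HBE LIEA (121 to 3618) and 623-fold higher against HBE Smart-seq2 (213 to 3029), with the wide intervals set by the few HBE reads. CLDN3 stood at 0.511, 1.99 and 7.56 rpkM in HBE LIEA, HBE Smart-seq2 and A549 LIEA, from 3, 25 and 40 reads. It was 14.8-fold (4.71 to 74.7) and 3.79-fold (2.24 to 6.52) higher in A549. CLDN3 and CLDN4 are neighbours on chromosome 7 (hg19, chr7:73183327-73184600 and chr7:73213872-73247020) and differed between the lines in opposite directions.

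Over the 20 claudins listed in any library, the summed level was 273 rpkM in HBE LIEA, 103 rpkM in A549 LIEA and 917 rpkM in HBE Smart-seq2. In HBE LIEA, CLDN7 gave 57.0% and CLDN4 34.2% of that sum. By Smart-seq2 the order of the pair was exchanged, with 62.0% from CLDN4 and 33.0% from CLDN7. In A549, CLDN2 gave 58.6%, CLDN1 8.62%, CLDN4 8.19%, CLDN3 7.35% and CLDN7 1.28%. CLDN2 thus led in A549, while it gave 0.0504% and 0.0105% in the HBE libraries. The remaining claudins of the list were CLDN1, at 6.67, 8.86 and 20.3 rpkM in HBE LIEA, A549 LIEA and HBE Smart-seq2, and CLDN12, at 7.06, 3.68 and 15.4 rpkM. In both, the HBE values were 2-fold or more apart, and A549 was within 2-fold of HBE by LIEA.

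**Figure D2:**
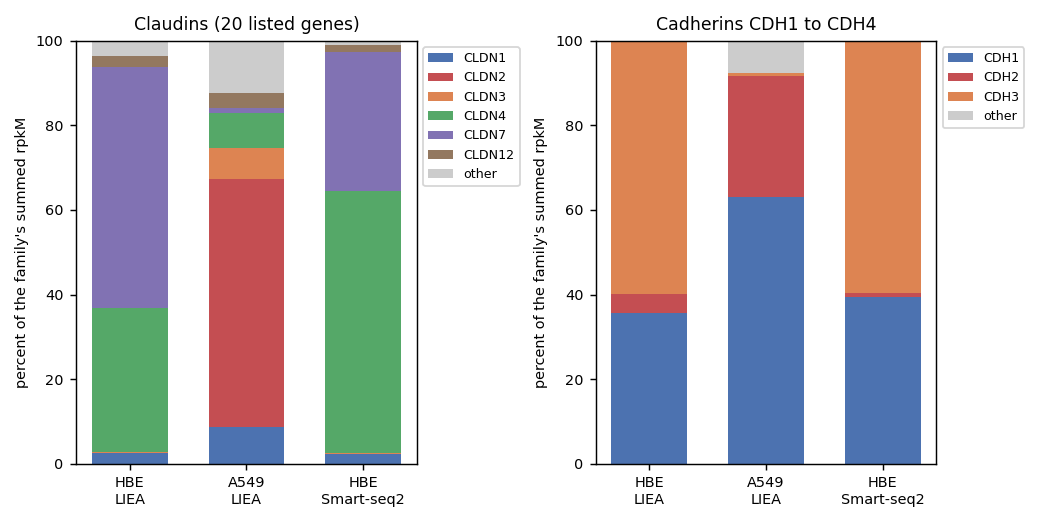
Percent of the summed rpkM of the claudin family (left, 20 listed genes) and of the cadherins CDH1 to CDH4 (right) in each library, as stacked bars from 0, 1 library each. CLDN4 and CLDN7 fill most of the HBE bars and CLDN2 58.6% of the A549 bar, and CDH3 fills 59.6% of both HBE bars and 0.732% of the A549 bar.

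Among the other tight junction genes, 3 were lower in A549 against both HBE libraries. F11R (JAM-A), an immunoglobulin-like adhesion protein, stood at 36.2, 15.6 and 70.5 rpkM in HBE LIEA, A549 LIEA and HBE Smart-seq2, 2.33-fold (2.04 to 2.66) and 4.53-fold (4.03 to 5.11) lower in A549. MARVELD2 (tricellulin), which seals the corners where cells meet, stood at 5.43, 2.67 and 9.26 rpkM. Its ratio to HBE LIEA was 2.03-fold (1.43 to 2.91), just past the call. MARVELD3 stood at 10.0, 2.51 and 9.31 rpkM, 3.99-fold (2.63 to 6.25) and 3.71-fold (2.50 to 5.69) lower. CGN (cingulin), a cytoplasmic plaque protein, stood at 12, 2.55 and 4.50 rpkM, which was 4.71-fold (3.51 to 6.42) lower in A549 by LIEA and within 2-fold of Smart-seq2.

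Occludin and the ZO scaffolds were not lower in A549 by LIEA. OCLN stood at 4.28 rpkM in HBE LIEA and 3.66 rpkM in A549 LIEA, 127 and 98 reads, a 1.17-fold difference whose counting interval holds 1 (0.891 to 1.54). In HBE Smart-seq2 it stood at 36.6 rpkM, or 2319 reads, so that the methods differed far more than the cell lines. TJP1 (ZO-1), which ties claudins and occludin to actin, stood at 20.3, 26.9 and 10.7 rpkM in HBE LIEA, A549 LIEA and HBE Smart-seq2. It was 1.33-fold (1.20 to 1.47) and 2.52-fold (2.28 to 2.78) higher in A549. TJP3 (ZO-3), at 6.47, 10.0 and 6.24 rpkM, lay above both HBE values by 1.55-fold and 1.60-fold, under the call.

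In adherens junctions, the largest ratio between the lines was that of a cadherin, CDH3. CDH3 (P-cadherin), found in basal epithelial cells, stood at 95.9 rpkM in HBE LIEA, 84.8 rpkM in HBE Smart-seq2 and 0.225 rpkM in A549 LIEA, from 1889, 3572 and 4 reads. It was 426-fold (166 to 1565) and 377-fold (147 to 1384) lower in A549, and the HBE values lay 1.13-fold apart. CDH1 (E-cadherin), the main cadherin of epithelia, stood at 57.1, 56.0 and 19.4 rpkM, from 1267, 2653 and 388 reads. That is 2.95-fold (2.63 to 3.31) and 2.89-fold (2.59 to 3.22) lower in A549, so E-cadherin mRNA was lower but well quantified there. The genes are neighbours on chromosome 16 (hg19, CDH3 at chr16:68670092-68761371 and CDH1 at chr16:68771195-68869440, both on the + strand).

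The cadherin makeup changed with this. CDH3 gave 59.6% of the summed level of CDH1 to CDH4 in both HBE libraries, and CDH1 35.5% in HBE LIEA and 39.3% in HBE Smart-seq2. In A549 CDH1 gave 63.0%, CDH2 (N-cadherin) 28.7%, CDH4 7.57% and CDH3 0.732%. The level of CDH2 itself was 7.56 rpkM in HBE LIEA, 8.82 rpkM in A549 LIEA and 1.60 rpkM in HBE Smart-seq2, so by LIEA the lines differed by 1.17-fold and its larger share came with lower CDH1 and CDH3.

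The catenins were among the steadiest genes between the methods, with all 5 adherens junction genes within 1.25-fold in HBE. CTNNB1 (beta-catenin), which links cadherins to alpha-catenin and also carries Wnt signals, stood at 163 and 188 rpkM in HBE LIEA and Smart-seq2 and at 65.9 rpkM in A549, 2.48-fold (2.31 to 2.67) and 2.85-fold (2.67 to 3.05) lower. CTNND1 (p120-catenin), which holds cadherins at the membrane, stood at 187, 174 and 56.4 rpkM, 3.31-fold (3.13 to 3.51) and 3.09-fold (2.93 to 3.27) lower. CTNNA1 (alpha-catenin), the link to actin, was at 126, 157 and 105 rpkM and within 2-fold. The summed level of the 5 genes was 629 rpkM in HBE LIEA, 660 rpkM in HBE Smart-seq2 and 247 rpkM in A549 LIEA.

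**Figure D3:**
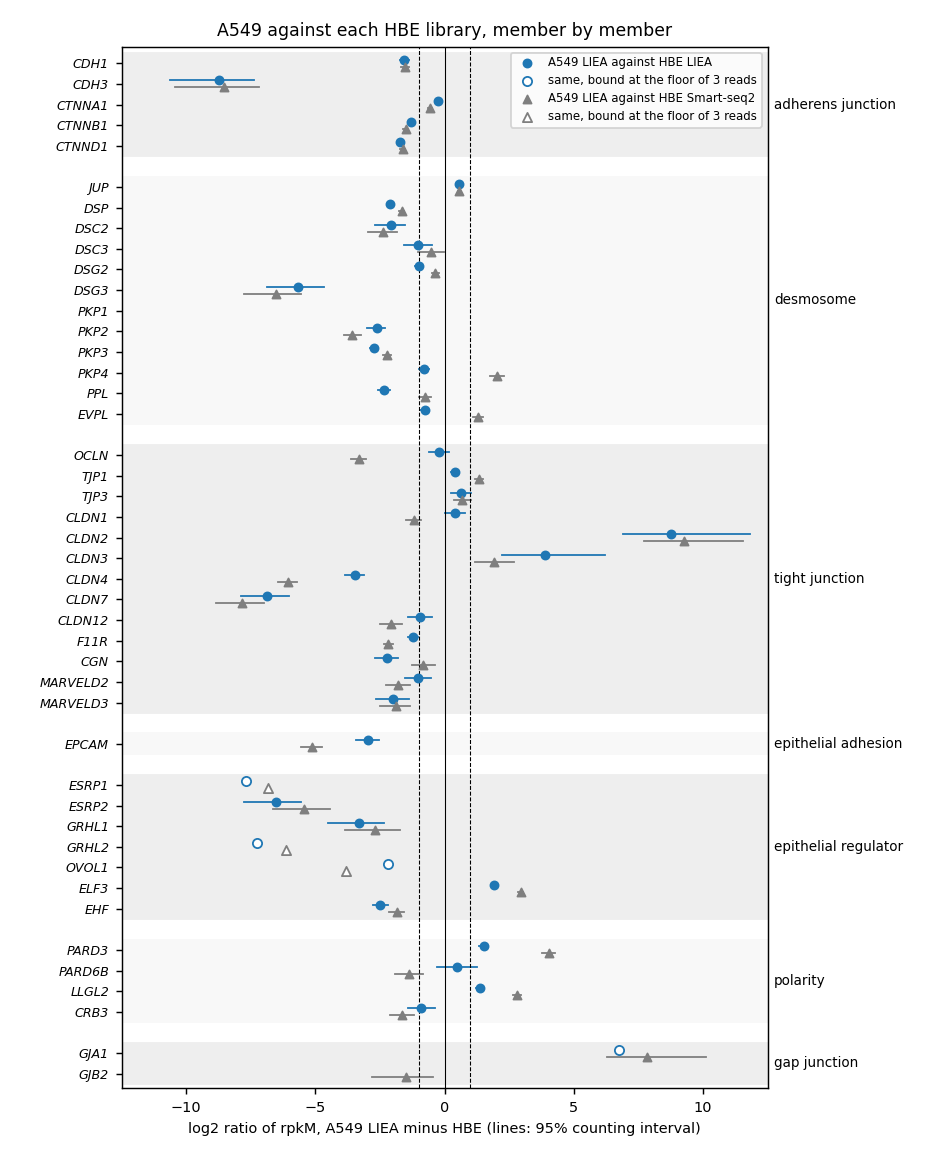
Log2 ratio of rpkM in A549 LIEA to HBE LIEA (circles) and to HBE Smart-seq2 (triangles) for each gene, grouped by role, with 95% counting intervals as lines, open symbols for bounds at the floor of 3 reads and dashed lines at a 2-fold difference. Both symbols lie past the dashed line on the left for 21 genes and on the right for 6, and for PKP4, EVPL, CLDN1 and PARD6B they lie on opposite sides of 0.

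Desmosomes divided by component. JUP (plakoglobin), shared by desmosomes and adherens junctions, stood at 246 rpkM in HBE LIEA, 248 rpkM in HBE Smart-seq2 and 366 rpkM in A549 LIEA. It was 1.49-fold (1.43 to 1.55) and 1.48-fold (1.43 to 1.53) higher in A549, under the call, while the log2 ratio between the methods was -0.01. DSP (desmoplakin), which ties the plaque to keratin, stood at 97.4, 71.0 and 22.5 rpkM. That was 4.34-fold (4.04 to 4.66) and 3.16-fold (2.95 to 3.39) lower in A549. The plaque proteins thus parted, with plakoglobin highest in A549 and desmoplakin lowest there.

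Of the desmosomal cadherins, DSG3, a desmoglein of basal and stratified epithelium, stood at 17.5 rpkM in HBE LIEA, 32.2 rpkM in HBE Smart-seq2 and 0.347 rpkM in A549 LIEA, from 448, 1759 and 8 reads. It was 50.5-fold (25.4 to 118) and 92.8-fold (47.0 to 215) lower in A549. DSG2, the desmoglein found in simple epithelia as well, stood at 54.5, 35.1 and 27.3 rpkM. Its ratio to HBE LIEA was 2.0-fold (1.82 to 2.20), just short of the call, and to Smart-seq2 1.29-fold. Of the summed desmoglein level, DSG2 gave 75.7% in HBE LIEA, 52.1% in HBE Smart-seq2 and 98.7% in A549. DSC2, a desmocollin of simple and stratified epithelia, stood at 5.88, 7.11 and 1.38 rpkM, 4.27-fold (2.86 to 6.56) and 5.16-fold (3.55 to 7.76) lower in A549. DSC3 stood at 2.79, 1.97 and 1.38 rpkM in HBE LIEA, HBE Smart-seq2 and A549 LIEA. It was 2.03-fold (1.41 to 2.96) lower against HBE LIEA, just past the call, and 1.43-fold lower against Smart-seq2. These 4 genes lie in 1 cluster on chromosome 18 (hg19, chr18:28569331-28622781 for DSC3, chr18:28638806-28682485 for DSC2, chr18:29027704-29058665 for DSG3 and chr18:29078140-29128971 for DSG2), within which the A549 ratios ran from 2.0-fold to 50.5-fold by LIEA.

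The plakophilins, which cluster desmosomal cadherins, were lower in sum, with 275 rpkM in HBE LIEA, 208 rpkM in HBE Smart-seq2 and 54.3 rpkM in A549. PKP3 led in each, at 217, 152 and 32.5 rpkM, and was 6.69-fold (6.0 to 7.46) and 4.67-fold (4.21 to 5.21) lower in A549. PKP2 stood at 26.9, 51.6 and 4.34 rpkM, 6.20-fold (4.90 to 7.94) and 11.9-fold (9.51 to 15.1) lower. PKP4, a relative of p120-catenin, stood at 30.5, 4.27 and 17.5 rpkM in HBE LIEA, HBE Smart-seq2 and A549 LIEA, so its direction between the lines turned with the method used for HBE. The same held for EVPL (envoplakin), at 27.6, 6.60 and 16.2 rpkM. PPL (periplakin) stood at 33.9, 11.2 and 6.64 rpkM, 5.11-fold (4.34 to 6.04) lower in A549 by LIEA and 1.69-fold lower against Smart-seq2.

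EPCAM, an epithelial adhesion protein outside the classical junctions, stood at 57.1 rpkM in HBE LIEA, 258 rpkM in HBE Smart-seq2 and 7.29 rpkM in A549 LIEA, from 452, 4362 and 52 reads. It was 7.84-fold (5.87 to 10.7) and 35.4-fold (26.9 to 47.5) lower in A549. Its A549 level was the lowest of the 3, and in HBE it was higher by Smart-seq2 than by LIEA.

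The epithelial regulators held 3 of the 4 genes of the list that were not listed in A549. ESRP1 and ESRP2, which set epithelial splice forms, stood at 38.9 and 44.4 rpkM in HBE LIEA and at 21.5 and 20.6 rpkM in HBE Smart-seq2. In A549, ESRP1 was not listed, at least 205-fold lower against HBE LIEA and at least 113-fold lower against Smart-seq2, and ESRP2 had 8 reads (0.479 rpkM), 92.7-fold (46.8 to 215) and 42.9-fold (21.7 to 99.8) lower. With the smallest reads that the values allow, the bounds for ESRP1 were 103-fold and 56.7-fold. Both genes of the family were therefore under 10 reads in A549 and at 682 to 822 reads in each HBE library.

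GRHL2, a grainyhead factor known to activate junction genes such as CDH1 and CLDN4, stood at 21.4 and 9.71 rpkM in HBE LIEA and Smart-seq2, from 516 and 500 reads. It was not listed in A549, at least 155-fold and 70.3-fold lower. With the upper limit of 3.69 reads in place of the floor, the bounds by LIEA were 126-fold for GRHL2 and 166-fold for ESRP1. GRHL1 stood at 6.02 and 3.92 rpkM in HBE and at 0.601 rpkM in A549, from 100, 139 and 9 reads. That was 10.0-fold (5.07 to 22.6) and 6.52-fold (3.34 to 14.6) lower. The third grainyhead gene, GRHL3, gave 80.2% of the family's 3.03 rpkM in A549, with 29 reads. OVOL1, a zinc finger factor, had 15 reads in HBE LIEA, 99 in HBE Smart-seq2 and none in A549. Its bounds were at least 4.51-fold and 13.9-fold lower, and the shallow HBE LIEA value leaves no larger bound.

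The ETS factors of epithelia differed in opposite directions. ELF3 stood at 75.3 rpkM in HBE LIEA, 37.2 rpkM in HBE Smart-seq2 and 286 rpkM in A549 LIEA, from 1126, 1189 and 3853 reads. It was 3.79-fold (3.55 to 4.06) and 7.68-fold (7.19 to 8.20) higher in A549. EHF stood at 28.5, 18.4 and 5.08 rpkM, 5.62-fold (4.61 to 6.90) and 3.63-fold (2.99 to 4.44) lower. ELF3 was thus the single regulator of the 7 that was higher in A549, and with 286 rpkM it exceeded the other 6 together there, since all 7 summed to 292 rpkM.

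Of the polarity genes, PARD3, the scaffold of the Par complex, stood at 13.8 rpkM in HBE LIEA, 2.42 rpkM in HBE Smart-seq2 and 39.3 rpkM in A549 LIEA, from 383, 143 and 981 reads. It was 2.84-fold (2.52 to 3.20) and 16.3-fold (13.6 to 19.5) higher in A549. LLGL2, a basolateral protein that opposes the Par complex, stood at 36.9, 13.5 and 94.6 rpkM, 2.56-fold (2.33 to 2.82) and 7.03-fold (6.33 to 7.82) higher. Both stood highest in A549 and lowest by Smart-seq2. PARD6B, a Par complex partner, and CRB3, the epithelial Crumbs protein, lay within 2-fold between the lines by LIEA, at 1.32 and 1.83 rpkM for PARD6B and at 19.0 and 10.2 rpkM for CRB3 in HBE and A549. Against Smart-seq2 they were 2.57-fold and 3.10-fold lower in A549.

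GJA1 (connexin 43), a gap junction channel of many cell types, was not listed in HBE LIEA, had 3 reads in HBE Smart-seq2 and 290 reads (22.0 rpkM) in A549 LIEA. It was at least 107-fold higher in A549 than in HBE by LIEA and 229-fold (77.6 to 1117) higher than by Smart-seq2. GJB2 (connexin 26) had 8 reads in each LIEA library and 54 in HBE Smart-seq2, too few to compare the lines by LIEA.

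Of 87 other junction, polarity and epithelial genes, 64 could be compared, and 12 were higher and 17 lower in A549 against both HBE libraries. Over all 14557 genes, 15.7% were higher and 11.8% lower. The regulator set of 15, with 14 compared, held 8 of the lower genes and 2 of the higher ones, KLF4 and SPDEF. Over all the sets, ST14, CDH13 and MAL2 were among those lower in A549 with the larger ratios. ST14 (matriptase), a surface protease of epithelia, had 2282 reads in HBE LIEA, 920 in HBE Smart-seq2 and 3 in A549. CDH13 (T-cadherin), which has no cytoplasmic tail, had 844 and 1092 reads in HBE and was not listed in A549. Of the 19 other polarity genes, 17 could be compared, with 3 higher and 2 lower. Among the 24 other tight junction genes, 14 could be compared, with 3 higher and 1 lower. The 13 other adherens genes gave 3 in each direction among 11 compared, and the 11 other gap junction genes 1 higher and 3 lower among 6. Just 2 of the 5 other desmosome genes could be compared, and neither was called.

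The mesenchymal counterparts were read in the same way. Of 10 genes, 6 were higher in A549 against both HBE libraries and 1, SNAI2, was lower, where 15.7% and 11.8% of all genes were. VIM (vimentin), an intermediate filament protein, had 4279 reads in A549 and was not listed in either HBE library. FN1 (fibronectin), a matrix protein, had 163 reads in HBE LIEA, 240 in HBE Smart-seq2 and 25508 in A549. ZEB1 had 56 reads and ZEB2 34 in A549, and neither was listed in HBE. SNAI2, another repressor that binds CAGGTG, had 32 reads in HBE LIEA, 817 in HBE Smart-seq2 and none in A549.

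Between the methods in HBE, 9 of 41 genes were higher by LIEA and 9 lower than by Smart-seq2, against 28.5% and 22.2% of all 13586 genes. The median log2 ratio was 0.05 over these genes and 0.04 over all genes. The split depended on the scaling, with 8 higher and 12 lower when centred on the median of all genes and 6 higher and 13 lower with a trimmed mean. The largest ratios toward LIEA were those of PKP4 (7.13-fold, 6.06 to 8.42), PARD3 (5.72-fold, 4.71 to 6.99), EVPL (4.19-fold, 3.72 to 4.71) and PPL (3.03-fold, 2.74 to 3.34). The largest toward Smart-seq2 were those of OCLN (8.54-fold, 7.14 to 10.3), CLDN4 (6.09-fold, 5.66 to 6.55), EPCAM (4.51-fold, 4.10 to 4.98) and CLDN3 (3.90-fold, 1.19 to 20.2). By role, 5 of 12 tight junction genes were higher by Smart-seq2 and 1 by LIEA, while 3 of 11 desmosome genes were higher by LIEA and none by Smart-seq2.

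The ratio of the methods was read beside the GC content of the transcript. Over 11565 genes with at least 10 reads in both HBE libraries, the median log2 ratio of LIEA to Smart-seq2 went from -0.66 under 40% GC to 1.02 at 60% GC or more. The Spearman correlation across genes was 0.39 with GC content and 0.27 with transcript length, and over 39 junction and polarity genes it was 0.28 and 0.36. These are descriptions over genes that share libraries and are not independent. OCLN, PARD6B and CLDN12, all under 40% GC, lay on the low side like the median of their class, while DSC3 of the same class lay at 0.51, and EVPL (2.07) and LLGL2 (1.46), over 60% GC, on the high side. The other genes of that class with 10 reads in both libraries lay below its median of 1.02, with PKP3 at 0.52, TJP3 at 0.05, JUP at -0.01 and CRB3 at -0.73. CLDN4 (57.5% GC) and CLDN3 (69.2% GC) went the other way, with log2 ratios of -2.61 and -1.96 in classes whose medians were 0.65 and 1.02. The CLDN3 ratio rests on 3 reads in HBE LIEA, under the 10 reads asked of its class. In the class of CLDN4, OVOL1 (-1.63) and CLDN7 (-0.96) also lay below the median, while PPL, CGN, ESRP2 and ELF3 lay above it. With the median of the GC class subtracted, 7 genes were higher by LIEA and 13 lower, and the log2 ratios of PKP4 and PARD3 were 2.71 and 2.40.

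**Figure D4:**
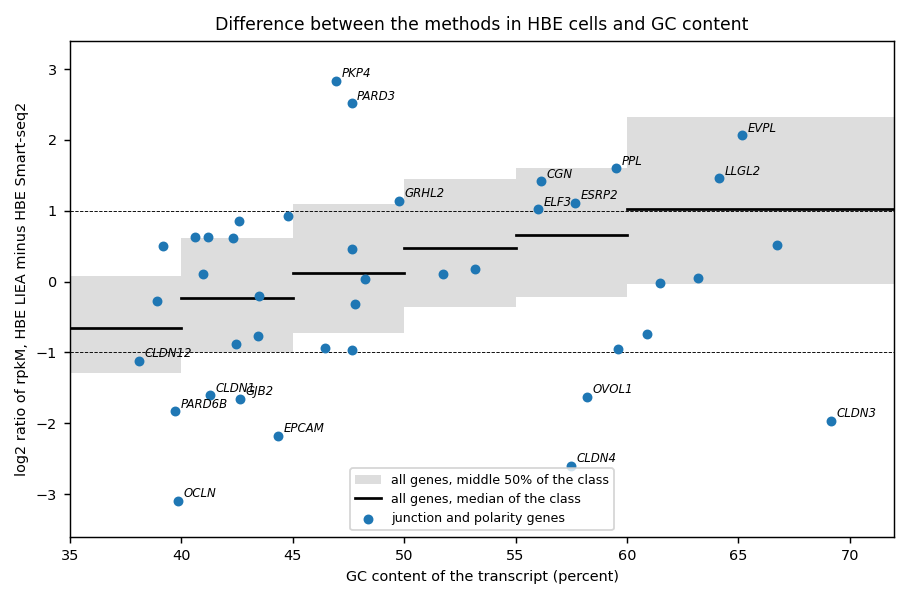
Log2 ratio of rpkM in HBE LIEA to HBE Smart-seq2 (vertical axis) against the GC content of the transcript in percent (horizontal axis) for the junction and polarity genes (points), with the median (black lines) and the middle 50% (grey) of all genes in each GC class and dashed lines at a 2-fold difference. The class medians go from -0.66 to 1.02, and CLDN4 and CLDN3 lie below their classes while PKP4 and PARD3 lie above.

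Some of these values may hold reads of other genes. Pseudogenes named after OCLN, PKP4, CTNNA1, CLDN7, CRB3, GJA1 and PARD6B are annotated, and reads from near-identical copies cannot be told apart here. On the other strand, CLDN7 overlaps ELP5, CLDN2 RIPPLY1, ESRP2 NFATC3, CRB3 DENND1C, TJP3 APBA3, MARVELD3 PHLPP2 and CTNNA1 LRRTM2. Whether reads were counted by strand is not given in the sources used here. On its own strand, CLDN12 overlaps GTPBP10, CDK14 and PTTG1IP2, and CTNND1, CLDN7 and F11R overlap protein-coding genes without a symbol. For PPL, MARVELD2, EPCAM, ESRP1 and GJB2, the reads given are 2 times the smallest whole number that the values allow, chosen from annotated transcript lengths, and that choice leaves their rpkM values and the ratios between listed values as they are. It does change their counting intervals and the bounds of ESRP1.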

How the data were processed

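PolyA+ mRNA from HBE and A549 cells was diluted to 10 pg and sequenced by LIEA, and HBE mRNA also by Smart-seq2, with 1 library each. The deposited values are log2 rpkM per gene, which the authors made by mapping reads with FANSe2 to RefSeq RNA and merging splice variants (hg19 in the submitters' processing notes). The values were converted to rpkM, and library totals and whole reads were recovered from them with transcript lengths of GENCODE v44lift37 (whole reads for 18854 of 18856 genes, to the 9 decimals deposited). The recovered reads summed to 105% to 106% of the totals. Smart-seq2 rows without a gene name (1589) and 4 rows per file with repeated names were left out, and 23 to 24 names that read as dates were kept as they stand and matched no gene of the lists. The bulk mRNA-seq and 200-cell libraries were not analysed here. The paper reports biological replicates of HBE LIEA, and 1 HBE LIEA library was analysed here.

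Ratios of rpkM were called at 2-fold among genes with at least 10 reads in 1 or more of the libraries compared, with exact binomial intervals on the reads. The 44 genes and all lists were chosen with earlier results of these data known. Genes are given with values where A549 passed 2-fold against both HBE libraries, where a library held under 10 reads, where they are core members or had the 4 largest ratios between methods, and otherwise more briefly. At most 4 genes of each other list are named by ratio, and some genes of these lists are not reported here. CDH2, GRHL3, SNAI2, KLF4, SPDEF and marker genes beyond these were named after their values were seen. With 1 library per group, no test was run. The read recovery and the calls were tested on simulated data. Alternatives were other folds, read minimums, a pseudocount of 1 rpkM, centring, a trimmed mean, GC classes and the other HBE library. Promoter windows came from RefSeq (GRCh38.p14). Scripts ran under Python 3.11.15 with scipy 1.17.1 for the intervals, pandas 2.3.3 and numpy 2.4.6 for the tables and matplotlib 3.10.9 for the figures.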

Additional observations from a re-analysis of the deposited data

How the results depend on the processing

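Of the genes lower (24) and higher (6) in A549 than in HBE by LIEA, the higher count was 3 at a fold of 4 and 3 with at least 10 reads in both libraries, and the lower count stayed between 17 and 29. Of the 30 genes called, 30 kept their direction when centred on the median of all genes, and 28 stayed past 2-fold, without DSC3 and MARVELD2. Against both HBE libraries, a fold of 4 gave 2 higher and 13 lower in place of 6 and 21. The median log2 ratio of A549 to HBE LIEA (-1.27) was -1.10 when centred, -1.02 with at least 10 reads in both, -1.11 on the log2(rpkM + 1) scale and -1.63 with Smart-seq2 as the HBE library. Between the methods in HBE, the 9 higher and 9 lower genes became 14 and 15 at a fold of 1.5 and 3 and 3 at a fold of 4. The split was 8 and 12 when centred, 6 and 13 with a trimmed mean and 7 and 13 after subtracting GC class medians. The median log2 ratio of the methods (0.05) was -0.048 when centred, 0.10 with at least 10 reads in both, 0.043 on the log2(rpkM + 1) scale and -0.30 after subtracting GC class medians. None of the 30 genes called between the lines by LIEA, or of the 18 called between the methods, changed direction under these alternatives. Of the genes called in A549 against HBE Smart-seq2 and also compared by LIEA, PKP4, EVPL, CLDN1 and PARD6B had the opposite direction against HBE LIEA, within 2-fold.

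With 1 library per group analysed, the spread between replicates is unknown here, and the counting intervals cover the sampling of reads only. In HBE the method and the sequencer cannot be told apart, and the differences between the lines by LIEA rest on 1 library of each. At 4605855 and 4154060 mapped reads, a gene not listed in a LIEA library was not detectable at this depth, and its fold rests on the floor of 3 reads. No paired analysis was possible because each group holds 1 library and no test was run.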
